A study of Mus musculus with 8 samples.

Results

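The *Snai*, *Zeb*, *Twist* and *Prrx* genes encode transcription factors that direct transitions between epithelial and mesenchymal cell states. They were examined in cultured pericytes from mouse brain, with the question of how these 9 genes responded to TGF-β1. The members were chosen by name (*Snai1*, *Snai2*, *Snai3*, *Zeb1*, *Zeb2*, *Twist1*, *Twist2*, *Prrx1* and *Prrx2*) from the 54532 Ensembl gene identifiers in the count files, and all 9 were found. After 48 h with TGF-β1, *Prrx2*, *Twist1*, *Prrx1* and *Snai2* were lower and *Zeb2* and *Snai1* were higher than with vehicle. *Zeb1* and *Twist2* did not pass the test, and *Snai3* was too low to be tested.

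Bulk RNA-seq libraries were made from total RNA of 8 wild-type primary cultures, 4 with vehicle and 4 with TGF-β1 (5 μg/mL), all for 48 h. The labels give no age, sex or strain, and the study's methods describe adult male mice for the work as a whole without naming the donors of these cultures. Per the study's methods, cells from papain-treated brain were passaged through an endothelial growth medium with serum before pericyte medium and were characterized after several passages, so the cultures are passaged cells and not freshly isolated pericytes. The methods describe isolates treated with both agents, whereas the labels number vehicle cultures 1 to 4 and TGF-β1 cultures 5 to 8, and the groups were compared as unpaired.

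Pericytes are mesenchymal cells of the capillary wall. Snail and Zeb proteins are zinc finger repressors that bind E-box sequences and silence epithelial junction genes such as *Cdh1*. Twist proteins are basic helix-loop-helix (bHLH) factors that pair with E proteins, and Prrx proteins are paired-related homeodomain factors of limb and craniofacial mesenchyme. In epithelial cells, TGF-β is known to raise several of them through Smad proteins, while in mesenchymal cells these factors are commonly present without any stimulus.

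The counts summed to between 45255235 and 47651397 per culture, and 22544 genes were kept by the filter on low expression in edgeR. Values are given as CPM, counts scaled to library size with TMM factors, and 3 counts corresponded to 0.0631 to 0.0658 CPM. Markers of the labelled cell type were mixed. *Pdgfrb*, *Cspg4* and *Notch3* were present in all cultures, whereas *Kcnj8*, *Abcc9* and *Vtn*, which mark brain pericytes in tissue, had between 0 and 9 counts. Of 9 endothelial markers, *Cdh5* was at 375 ± 6.23 CPM (SD, n = 4) in the vehicle group, while *Pecam1* was at 1.11 CPM and *Cldn5* and *Tie1* had at most 10 counts. The summed endothelial markers were at 475 to 487 CPM with vehicle and 475 to 500 CPM with TGF-β1. With vehicle most of this sum was *Cdh5*, and most of the rest came from endothelial markers not named here. The summed levels of 12 pericyte markers (574 to 592 CPM with vehicle, 746 to 775 CPM with TGF-β1) and of 8 fibroblast markers (3796 to 3961 CPM and 5342 to 5583 CPM) differed between the groups, although 3 pericyte markers were higher and 3 lower, and 2 fibroblast markers (*Col1a1* and *Col1a2*) were higher and 4 lower. Smooth muscle markers summed to 841 to 916 CPM and 784 to 818 CPM, astrocyte markers to 19.6 to 21.1 CPM and 24.9 to 27.9 CPM, microglial markers to 104 to 109 CPM and 102 to 105 CPM, oligodendrocyte markers to 4.12 to 5.52 CPM and 5.38 to 6.11 CPM, and neuronal markers to 14.1 to 16.7 CPM and 16 to 19.5 CPM, in the vehicle and TGF-β1 groups in that order. No marker of these lists was at 0 in all cultures. The part of these cell types in the results below was not tested. In bulk RNA, fewer cells of a type and less RNA per cell cannot be told apart.

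Sequence upstream of 3 of the changed genes is shown because it holds letters bound by these factors or by Smad proteins. The windows were the 250 bases before a start site annotated by RefSeq (GRCm38.p6), and 6 of the 9 members had at least one. They were searched on both strands for the E-box bound by Snail and Zeb proteins (CAGGTG), for the general bHLH core (CANNTG, which includes CAGGTG), for a Smad element (CAGAC) and for a homeodomain site (TAATTA). Capitals mark a match to one of these motifs on either strand, and bases that GENCODE assigns to an exon were left out.
Snai1, chr2:167537945-167538194, plus strand: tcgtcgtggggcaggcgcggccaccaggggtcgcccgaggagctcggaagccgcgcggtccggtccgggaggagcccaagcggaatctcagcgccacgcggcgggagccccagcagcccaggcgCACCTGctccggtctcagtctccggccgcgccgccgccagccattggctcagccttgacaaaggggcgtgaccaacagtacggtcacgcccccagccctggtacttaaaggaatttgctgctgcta
Twist1, chr12:33957421-33957670, plus strand: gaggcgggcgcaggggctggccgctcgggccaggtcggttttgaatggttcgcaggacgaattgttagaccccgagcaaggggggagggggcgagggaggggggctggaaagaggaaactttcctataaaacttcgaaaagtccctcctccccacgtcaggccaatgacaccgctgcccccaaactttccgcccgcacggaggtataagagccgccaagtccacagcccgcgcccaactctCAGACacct
Prrx1, chr1:163313711-163313900, minus strand: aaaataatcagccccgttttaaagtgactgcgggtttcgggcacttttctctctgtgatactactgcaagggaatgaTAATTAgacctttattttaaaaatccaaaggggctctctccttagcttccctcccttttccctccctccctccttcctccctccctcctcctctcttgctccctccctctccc

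The *Snai1* window held 1 Snail and Zeb E-box, from 126 to 121 bases upstream of the start, a motif found in 17.2% of the 32851 windows available. These windows do not cover every gene, and a gene with several annotated starts counts more than once. The *Twist1* window held 1 Smad element, 9 to 5 bases upstream, and such a match was present in 42.2% of all windows. The *Prrx1* window held a homeodomain site 173 to 168 bases upstream, found in 4.84% of all windows, and a Smad element nearer the start. The windows of *Prrx2*, *Twist2* and all RefSeq starts of *Zeb2* had none of the 4 motifs, of which CANNTG was present in 66.2% of all windows. By GENCODE, all 250 bases of the *Prrx2* window lie in *Prrx2* exons and all those of the *Twist2* window in *Gm29100* exons. The *Zeb2* windows other than chr2:45117443-45117692 lie wholly or mostly in exons. A match is a description of the letters only, and nothing follows from these windows about binding.

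Among the Snail genes, *Snai1* (ENSMUSG00000042821, chromosome 2, 167538195 to 167542814 of GRCm38) encodes Snail, the repressor most often linked to an early TGF-β response. It was at 66.9, 62.0, 63.4 and 63.3 CPM in vehicle cultures 1 to 4 and at 68.0, 69.8, 72.9 and 67.5 CPM in TGF-β1 cultures 5 to 8. Each TGF-β1 culture was above each vehicle culture, although the nearest values differed little. The log2 fold change was 0.12 (standard error 0.03, 95% confidence interval 0.06 to 0.19), a rise of 8.8%, and the quasi-likelihood test of edgeR gave an adjusted p of 0.00216.

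*Snai2* (ENSMUSG00000022676, chromosome 16, 14705852 to 14709385) encodes Slug, a close relative of Snail with a known place in neural crest and mesenchyme. Its vehicle values were 84.9, 80.9, 82.3 and 83.5 CPM, and its TGF-β1 values were 72.9, 73.0, 70.1 and 75.3 CPM. All TGF-β1 cultures lay below all vehicle cultures. *Snai2* fell by 0.19 on the log2 scale (standard error 0.03, adjusted p = 1.31e-06 in edgeR's test), so it moved in the opposite direction to *Snai1*.

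*Snai3* (ENSMUSG00000006587, chromosome 8, 122454208 to 122460733), the least studied Snail gene, had 2, 2, 8 and 4 counts with vehicle and 7, 5, 2 and 8 with TGF-β1. These are 0.0434 to 0.170 CPM, around the level of 3 counts, and a difference was not detectable at this depth.

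The Zeb genes encode large zinc finger and homeodomain repressors. *Zeb2* (ENSMUSG00000026872, chromosome 2, 44983632 to 45117395) was at 189, 182, 177 and 173 CPM with vehicle and at 218, 228, 229 and 225 CPM with TGF-β1. The groups were well apart, and *Zeb2* showed the highest rise of the 8 members tested. Its mean went from 180 ± 6.48 to 225 ± 4.88 CPM (SD, n = 4 each), which is 0.32 on the log2 scale (standard error 0.03, 95% confidence interval 0.27 to 0.37, adjusted p = 2.33e-14, edgeR). Its exons overlap those of the antisense gene *Zeb2os* over 3.27% of their length, and *Zeb2os* itself had only 39 to 71 counts per culture (log2 fold change 0.34, adjusted p = 0.178 in edgeR's test).

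*Zeb1* (ENSMUSG00000024238, chromosome 18, 5591860 to 5775467) was about as abundant in counts as *Zeb2* in the vehicle cultures. It was at 181, 178, 177 and 173 CPM with vehicle and at 182, 183, 179 and 186 CPM with TGF-β1. The groups overlapped. Its log2 fold change of 0.04 had a 95% confidence interval of -0.01 to 0.09 and an adjusted p of 0.174 (edgeR).

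The Twist genes encode bHLH factors of cranial and limb mesenchyme. *Twist1* (ENSMUSG00000035799, chromosome 12, 33957671 to 33959829) was at 59.2, 60.8, 64.5 and 58.8 CPM with vehicle and at 47.4, 50.8, 49.3 and 45.2 CPM with TGF-β1. The highest TGF-β1 culture was below the lowest vehicle culture. The mean went from 60.8 ± 2.62 to 48.2 ± 2.44 CPM (SD, n = 4 each), or -0.34 as a log2 fold change with a standard error of 0.04 (adjusted p = 2.31e-10, edgeR).

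*Twist2* (ENSMUSG00000007805, chromosome 1, 91801461 to 91848028), also called Dermo1, was at 9.44, 9.41, 9.43 and 9.10 CPM with vehicle and at 10.5, 10.5, 9.21 and 9.58 CPM with TGF-β1. Of the TGF-β1 cultures, 5 and 6 were high while 7 and 8 lay near the vehicle values. The log2 fold change was 0.09 (95% confidence interval -0.05 to 0.23, adjusted p = 0.350, edgeR). Because the antisense gene *Gm29100* overlaps 46.5% of its exon length and the strand setting of the counting was not given in the sources used here, the count of *Twist2* is uncertain. The level of *Gm29100* was 2.74 ± 0.394 CPM in vehicle cultures and 2.67 ± 0.377 CPM in TGF-β1 cultures (SD, n = 4 each).

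The Prrx genes encode homeodomain factors that mark connective tissue progenitors. *Prrx1* (ENSMUSG00000026586, chromosome 1, 163245119 to 163313710) had the highest counts of the 9 members, with 542, 529, 528 and 526 CPM with vehicle and 465, 465, 462 and 460 CPM with TGF-β1. The spread within each group was small beside the gap between them. *Prrx1* fell by 0.20 on the log2 scale, or by 12.9% (standard error 0.02, adjusted p = 1.31e-10, edgeR).

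*Prrx2* (ENSMUSG00000039476, chromosome 2, 30834972 to 30881251) had the largest change among the 8 members tested. It was at 101, 106, 103 and 105 CPM with vehicle and at 69.4, 67.4, 65.9 and 61.7 CPM with TGF-β1. The groups were far apart, with means of 104 ± 1.93 and 66.1 ± 3.28 CPM (SD, n = 4 each). *Prrx2* fell by 0.65 on the log2 scale, or by 36.3% (standard error 0.03, 95% confidence interval -0.71 to -0.59, adjusted p = 9.43e-22, edgeR). By absolute log2 fold change it ranked 2827 among the 22544 genes tested.

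**Figure D1:**
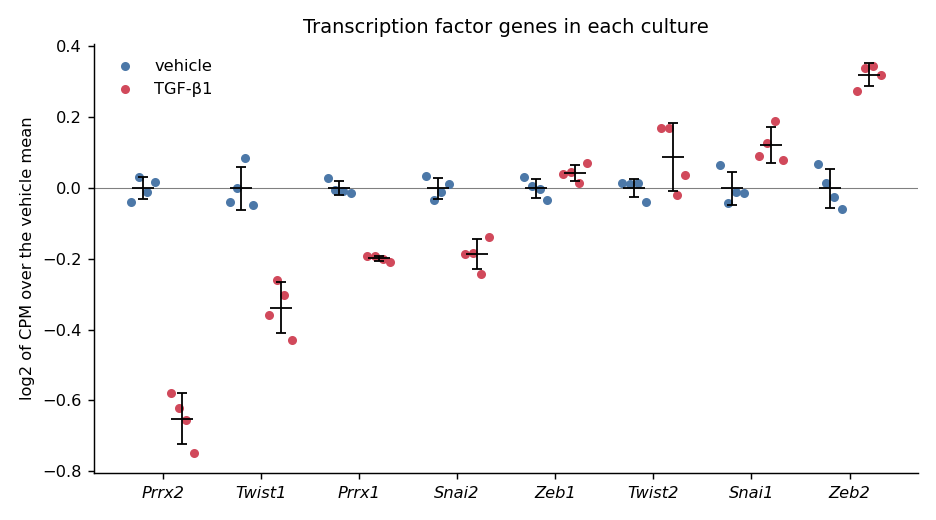
The log2 ratio of each culture's CPM to the vehicle mean (vertical axis) for the 8 members tested, ordered by log2 fold change; blue points are vehicle and red points TGF-β1 cultures, with mean and SD over 4 cultures as bars. *Prrx2* sits lowest (log2 fold change -0.65) and *Zeb2* highest (0.32), while the points of *Zeb1* and *Twist2* overlap between groups.

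Of the 8 members tested, 2 were higher and 4 were lower at an adjusted p under 0.05. The same test called 41.3% of all 22544 genes (20.9% higher and 20.3% lower). Among the 10087 genes with a mean level within the range of the members (9.64 to 497 CPM) it called 60.5% (33.6% higher and 27% lower), so a count of 6 in 8 is near the share of genes as abundant as these. The CPM values of the groups did not overlap for the same 6 members, against 37.9% of all genes tested. The median log2 fold change of the 8 members was -0.07 and that of all genes tested was -0.01. Their median absolute log2 fold change was 0.19, beside 0.18 for all genes tested and 0.13 for genes of similar abundance. The called members of the Snail family moved in opposite directions, and both Prrx genes moved down.

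Levels were compared between genes per kb of exon, using the union of annotated exons in GENCODE M21, whatever isoform was used. This length was 11066 bases for *Prrx1* (5 transcripts), 19942 for *Zeb2* (29) and 1961 for *Prrx2* (4). A shorter length for a gene would raise its level per kb, so the order between genes depends on this choice. With vehicle the order of mean CPM per kb was *Prrx2* (52.9), *Prrx1* (48.0), *Snai2* (41.0), *Snai1* (39.4), *Twist1* (37.4), *Zeb1* (17.3), *Zeb2* (9.04), *Twist2* (2.94) and *Snai3* (0.0526). The ranges of *Snai2* and *Snai1*, and of *Snai1* and *Twist1*, overlapped, and those of the other neighbours did not. With TGF-β1, *Snai1* (42.9 CPM per kb) and *Prrx1* (41.8) came first with overlapping ranges, followed by *Snai2* (36.0) and *Prrx2* (33.7), which also overlapped, and by *Twist1* (29.6). With these lengths, *Prrx2* thus went from the highest level per kb to the fourth. *Zeb1* (17.8), *Zeb2* (11.3), *Twist2* (3.13) and *Snai3* (0.0730) kept their order.

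**Figure D2:**
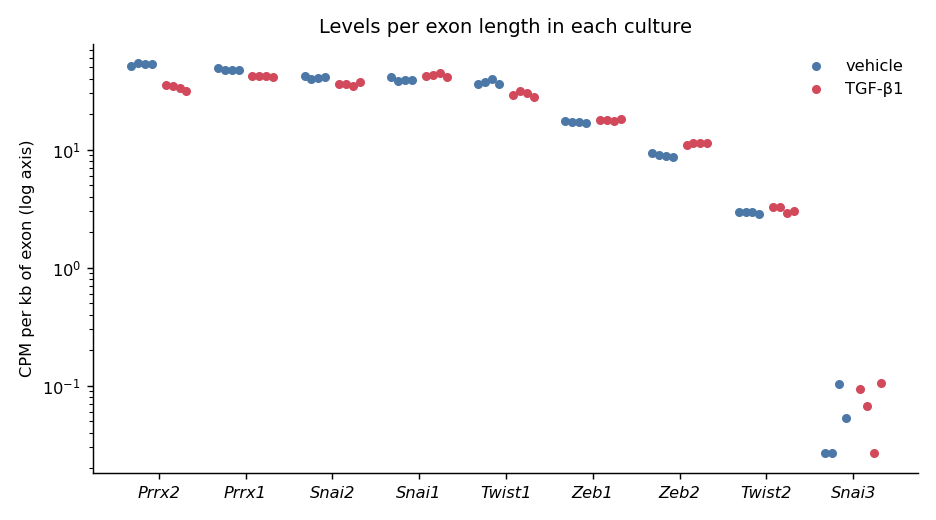
CPM per kb of exon (log axis) in each of the 8 cultures for all 9 members, ordered by the vehicle mean, with blue points for vehicle and red for TGF-β1. *Snai1*, *Snai2*, *Twist1*, *Prrx1* and *Prrx2* lie within 27.8 to 53.8 CPM per kb, and *Snai3* lies at 0.105 or lower.

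The balance within each family was measured as the log2 ratio of the counts of its members in the same culture, which does not depend on how the libraries are scaled. The *Snai1*/*Snai2* ratio was -0.34, -0.38, -0.38 and -0.40 with vehicle and -0.10, -0.06, 0.06 and -0.16 with TGF-β1, a difference of 0.31. The *Zeb1*/*Zeb2* ratio was between -0.06 and 0.00 with vehicle and between -0.36 and -0.27 with TGF-β1, a difference of -0.28. In the Snail family the balance moved to *Snai1*, and in the Zeb family it moved to *Zeb2*.

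The *Twist1*/*Twist2* log2 ratio was between 2.65 and 2.77 with vehicle and between 2.18 and 2.42 with TGF-β1, so that *Twist1* had 6.50 times the counts of *Twist2* with vehicle and 4.85 times with TGF-β1. The *Prrx1*/*Prrx2* log2 ratio was between 2.33 and 2.42 with vehicle and between 2.74 and 2.90 with TGF-β1, or 5.12 and 7.00 times. Both Prrx genes fell, and *Prrx2* fell more. In each of the 4 ratios the groups did not overlap (two-sided p = 0.0286 by an exact permutation test, which is the lowest value possible with 4 cultures against 4, and 0.0286 adjusted over the 4 ratios). Because *Snai1* and *Snai2* were already apart between groups in opposite directions, their ratio had to separate. The other ratios also hold at least 1 member already apart, so these tests add no independent support to the calls of the members.

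**Figure D3:**
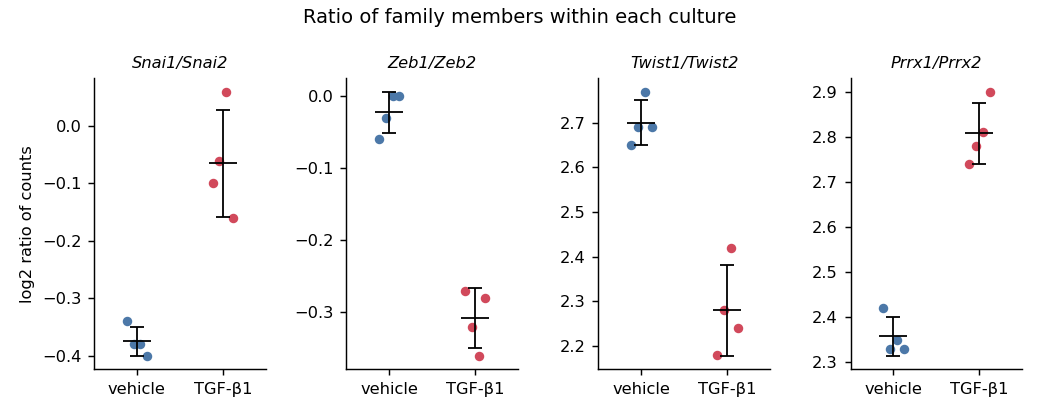
The log2 ratio of counts of both members of a family in each culture (vertical axis, a separate scale in each panel), with blue points for vehicle, red points for TGF-β1, and mean and SD over 4 cultures as bars. The ratio of *Snai1* to *Snai2* and of *Prrx1* to *Prrx2* is higher in every TGF-β1 culture (differences of 0.31 and 0.45), and those of *Zeb1* to *Zeb2* and *Twist1* to *Twist2* are lower (-0.28 and -0.42).

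Genes that act with or beside these factors were taken from lists. Beside the counts given for each list, the same test called 41.3% of all genes tested (20.9% higher and 20.3% lower). Among genes as abundant as the members (mean of 9.64 to 497 CPM) it called 60.5% (33.6% higher and 27% lower). That share is not matched to lists with genes outside this range, such as many epithelial genes below it and *Lox* above it. Corepressors recruited by Snail and Zeb proteins were all expressed, and of 15 tested, 8 were higher and 4 lower, with a median log2 fold change of 0.10. *Ajuba*, a LIM adaptor of the Snail repressor domain, rose most, from 90.1 ± 7.21 to 122 ± 2.32 CPM (SD, n = 4 each, log2 fold change 0.44, adjusted p = 2.57e-07, edgeR). *Kdm1a*, the histone demethylase LSD1, and *Suz12*, a Polycomb subunit, each rose by 0.20. *Limd1*, another LIM adaptor, fell by 0.24, and *Ctbp2* and *Ctbp1*, the corepressors bound by Zeb proteins, fell by 0.13 and 0.12 on the log2 scale.

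Of 12 tested genes for enzymes that modify or degrade Snail and Twist proteins, 8 were higher and 2 lower, with a median log2 fold change of 0.09. The ubiquitin ligase subunits *Fbxo45* and *Fbxw7* rose by 0.22 and 0.17 and the kinase *Pak1* by 0.26, while *Ctdsp1*, a phosphatase that stabilizes Snail, fell by 0.36. *Btrc*, the ligase subunit that recognizes phosphorylated Snail, fell by 0.09 (adjusted p = 0.0254, edgeR). The number lower was 1 without any one of vehicle cultures 1, 2 and 4 or TGF-β1 cultures 5, 6 and 8. Protein levels were not measured in these libraries.

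Twist proteins pair with E proteins, which Id proteins in turn bind. Of the 3 E protein genes and 4 Id genes, 6 were lower, 0 higher and 1 not called in edgeR's test (20.3% of all genes tested and 27% of genes as abundant as the members were lower), with 7 lower and 0 higher at an unadjusted p under 0.05, and the median log2 fold change was -0.19. DESeq2 also called 0 higher. Of the Id genes, whose products sequester E proteins, 3 held the largest changes of the 7. *Id4* fell by 1.53 on the log2 scale (5.79 ± 0.671 to 2.00 ± 0.345 CPM, SD, n = 4 each), *Id2* by 1.12 (between 56.0 and 59.3 CPM in vehicle cultures and between 23.6 and 30.3 CPM in TGF-β1 cultures) and *Id3* by 0.41. The E protein genes *Tcf12* and *Tcf4* fell by 0.19 and 0.09, and *Tcf3* had a log2 fold change of -0.06 (adjusted p = 0.0631, edgeR). *Id1*, the other Id gene, fell by 0.19 (78.1 to 68.4 CPM, adjusted p = 8.74e-06, edgeR). *Id1*, *Tcf12*, *Tcf4* and *Tcf3* were named after their values were seen.

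Of 12 genes on the route from TGF-β to these factors, 6 were higher and 3 lower, with a median log2 fold change of 0.18. *Skil*, a Smad corepressor, rose from 104 ± 2.99 to 204 ± 7.27 CPM (SD, n = 4 each, log2 fold change 0.97), *Hmga2*, a chromatin protein that activates *Snai1* and *Twist1* in epithelial cells, from 285 ± 5.84 to 519 ± 27.8 CPM (0.86), and *Tgif1* by 0.69. *Tgfbr2*, the ligand-binding receptor, fell by 0.59, *Ets1* by 0.16 and *Smad3* by 0.13. Each of these 6 passed the threshold in edgeR. The other receptor on the list, *Tgfbr1*, named after its value was seen, moved opposite to *Tgfbr2*. It rose by 0.45 (35.2 to 48.2 CPM, adjusted p = 2.62e-13, edgeR). *Hmga2* had a log2 fold change of 0.86 beside 0.12 for *Snai1*, while *Twist1* fell. A link between these changes was not tested.

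Structural relatives of the members were mostly silent, since 10 of the 16 listed were too low to be tested and *Hand2* and *Tcf21* had no count in any culture. Among the 6 tested, the bHLH gene *Scx*, a tendon factor, rose by 0.68 on the log2 scale and the homeobox gene *Shox2* by 0.55, while the homeobox genes *Alx4* and *Msx1* fell by 0.41 and 0.17. Of 17 other factors linked to mesenchymal states, 7 were higher and 6 lower, and their median log2 fold change was -0.05. *Foxq1* (1.63), *Mkx* (1.12) and *Runx1* (0.74) rose most, and *Foxc2* and *Tbx18* fell by 0.77 and 0.42. *Tbx18* is a mural cell factor, and *Foxc2* acts in mesenchyme of mesodermal and neural crest origin.

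Epithelial genes, the classical targets that these repressors silence, summed to 209 to 217 CPM with vehicle and 204 to 210 CPM with TGF-β1. Of 34 listed, 11 were too low to be tested, and of the other 23, 8 were higher and 3 lower (median log2 fold change 0.24, median over all genes tested -0.01). *Cdh1*, named after its value was seen, had 15 to 34 counts per culture, 0.492 CPM with vehicle and 0.549 CPM with TGF-β1 (adjusted p = 0.724, edgeR), so a change in it was not detectable at this depth. The tight junction gene *Cldn1* fell from 56.7 ± 1.73 to 10.9 ± 1.61 CPM (SD, n = 4 each, log2 fold change -2.38, adjusted p = 3.23e-18, edgeR). The desmosomal genes *Pkp1* (log2 fold change 2.18) and *Dsp* (1.30) and the splicing factor *Esrp2* (0.55) rose. *Lsr* fell by 0.38 (adjusted p = 0.0383, edgeR). The low tight junction gene *Ocln*, named after its value was seen, fell by 1.52 (1.31 to 0.454 CPM, adjusted p = 9.36e-07, edgeR). The number lower was 2 or 3 over the 15 alternatives. Of the epithelial genes named up to this point, *Cldn1* alone exceeded 10 CPM in any culture. *Jup*, named after its value was seen, was more abundant and rose from 104 to 132 CPM (log2 fold change 0.34, adjusted p = 1.95e-14, edgeR). The summed level thus held both the fall of *Cldn1* and the rise of *Jup*. *Pkp2*, also named after its value was seen, was at 23.4 CPM with vehicle and 24.1 CPM with TGF-β1.

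Mesenchymal genes were abundant, at 18929 to 19289 CPM in sum with vehicle and 25555 to 26287 CPM with TGF-β1. Of 31 tested, 19 were higher and 6 lower (20.9% and 20.3% of all genes tested were), with a median log2 fold change of 0.44. *Tnc*, a matrix glycoprotein, rose from 17.3 ± 0.692 to 73.3 ± 7.57 CPM (log2 fold change 2.08) and *Lox*, a collagen crosslinker, from 960 ± 39.5 to 2206 ± 32.5 CPM (1.20, SD, n = 4 each). *Ddr2*, *Mmp14* and *Wnt5a* fell by 0.38, 0.23 and 0.20. Each of these 5 changes passed edgeR's test, and both rises were larger in log2 fold change than that of any of the 8 members tested.

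**Figure D4:**
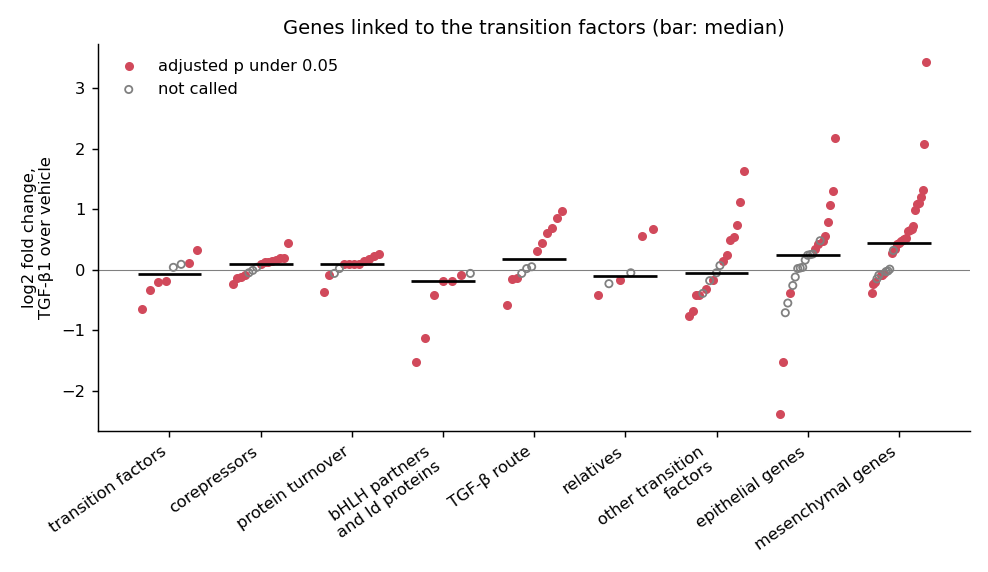
Log2 fold change (TGF-β1 over vehicle, vertical axis) of each tested gene in the members and 8 related lists, with red points for an adjusted p under 0.05, open points for genes not called and a black bar at the median. The members lie between -0.65 and 0.32, whereas the median of the mesenchymal genes is 0.44 and epithelial genes span -2.38 to 2.18.

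The genes for the miR-200 family, whose mature products repress *Zeb1* and *Zeb2*, had at most 2 counts in any culture (*Mir200a*, *Mir200b* and *Mir200c*) or 0 in all (*Mir141* and *Mir429*). *Mir205* was also at 0, and *Mir34a*, *Mir34b* and *Mir34c*, whose products target *Snai1*, had 2 to 15 counts. These are precursor genes, and the mature miRNAs were not measured.

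The genes most like each member across the 8 cultures were found by Pearson's r of log2 CPM among 16494 genes with a mean of at least 1 CPM, as a description. For *Prrx2* they were *Hexim1* (r = 0.999) and *Foxc2* (0.999), for *Prrx1* *Pde5a* (0.998) and *Dzip1* (0.998), for *Zeb2* *Zfp862-ps* (0.999) and *Hipk2* (0.995), and for *Twist1* *Sppl2a* (0.992) and *Agap2* (0.990). For *Snai2* they were *1300002E11Rik* (0.990) and *BB123696* (0.987), for *Snai1* *Gng4* (0.978) and *Rbms1* (0.974), for *Zeb1* *Rbm25* (0.961) and *Cdk5rap2* (0.960), and for *Twist2* *Hsdl2* (0.949) and *Snhg12* (0.931). For the called members, a high r reflects mainly that both genes differed between vehicle and TGF-β1. *Zeb1*, *Twist2* and the genes most like them did not pass edgeR's test (adjusted p from 0.0805 to 0.350), so this does not hold for them.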

How the data were processed

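The authors aligned reads to mm10 with STAR (2.7.5c) in 2-pass mode, removed PCR duplicates with SAMtools (1.15), counted reads per gene with featureCounts (2.0.3) and deposited these counts without normalization, 1 library per culture. The annotation and strand setting were not given in the sources used here. Symbols, positions and exon lengths were taken from GENCODE M21 on GRCm38, which matched 54495 of 54532 identifiers.

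The deposited counts were tested with edgeR 4.0.16 in R 4.3.3 (filterByExpr, TMM, robust dispersion, quasi-likelihood test, two-sided) for TGF-β1 against vehicle, with p-values adjusted by Benjamini-Hochberg across 22544 genes and called under 0.05. CPM used the total over tested genes times the TMM factor. Ratios used a pseudocount of 0.5 and exact two-sided permutation tests (35 distinct splits). The code was tested on simulated data. Genes were named by a rule: all members, genes whose exons overlap them, up to 3 rises and 3 falls per list among called genes with a mean of at least 1 CPM, and the 2 genes most alike per member. Of the genes this rule names, 2 are not reported here. The members and lists were chosen with earlier results of these data known. Low counts were mostly even (68.5% to 70.2% of counts from 1 to 20), so both mates of a read pair may have been counted. Replicate pairs differed by more than sampling noise to an uneven extent (chi-square per degree of freedom 1.12 to 1.95 with counts halved), and each culture was counted as 1 sample. Vehicle cultures 3 and 4 differed least (1.12), followed among vehicle pairs by cultures 1 and 2 (1.49), while the vehicle pairs across these gave 1.74 to 1.95. Whether vehicle cultures 1 and 2, or 3 and 4, share an origin was not tested. Whether the cultures came from separate animals is not labelled, so p-values measure the spread between these cultures. The depth of 45255235 to 47651397 counts per culture limits what can be seen in genes with few counts, such as *Snai3* and *Cdh1*. Alternatives were DESeq2 1.42.0, other scaling, other filters, halved counts and each culture left out.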

Additional observations from a re-analysis of the deposited data

Results flagged for a closer look

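*Twist2* was at 9.10 CPM in vehicle replicate 4, and the nearest vehicle value was 9.41 CPM, a gap that takes up most of the range of that group. It was the 1 such value among 28 groups of 4 (members, totals and ratios within families), of which chance would give 1.4.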

How the results depend on the processing

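Each of the 6 called members kept its direction and its call under all 15 alternatives (DESeq2, 3 other scalings, 2 other filters, halved counts and each of 8 cultures left out), and *Zeb1* and *Twist2* stayed above an adjusted p of 0.05. The log2 fold change ranged from -0.68 to -0.61 for *Prrx2*, from -0.37 to -0.30 for *Twist1*, from -0.21 to -0.18 for *Prrx1*, from -0.20 to -0.17 for *Snai2*, from 0.30 to 0.35 for *Zeb2* and from 0.09 to 0.15 for *Snai1*, whose adjusted p ranged from 4.45e-04 to 0.0301 in edgeR and DESeq2. The number of genes called was 8559 to 9311, and the ratios within families kept their direction with each culture left out and with a pseudocount of 2. No paired analysis was possible because the labels number the groups 1 to 4 and 5 to 8, with no number in common. *Snai3* was tested only in DESeq2 (log2 fold change 0.47, adjusted p = 0.714) and with a filter of 1 count in any culture (0.45, 0.762 in edgeR). Among the miRNA precursor genes, 1 was lower without vehicle culture 4 and 0 otherwise in edgeR and DESeq2.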
